A study of Canis lupus familiaris with 9 samples.

Results

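CD4+ peripheral T cell lymphomas (PTCL) of 3 dogs of breeds other than Boxer were compared, gene by gene, with sorted CD4+ T cells of healthy hounds (3 libraries). These 6 libraries were chosen by their labels from the 9 of the series, and the 3 Boxer lymphomas stayed out of the test. Lymphoma 1 came from a spayed female Cavalier King Charles Spaniel aged 3 years, lymphoma 2 from a spayed female Rhodesian Ridgeback aged 4 years and lymphoma 3 from a castrated male Collie aged 11 years. Each control is labelled as a hound, female, not neutered and 1 year old, and the labels do not say whether the 3 are different animals, so p-values cover only the spread between samples, which may be technical. The Boxers were castrated males of 6 years (Boxer lymphomas 1 and 3) and a spayed female of 8 years. Sorting is given for the controls alone, and neither the tissue nor any purification of the lymphoma cells is given. Disease therefore cannot be told apart from breed, age, neutering and sorting, nor from sex in lymphoma 3.

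PTCL is a cancer of mature T cells that have left the thymus. A resting CD4+ T cell circulates between blood and lymph nodes, divides rarely, and on meeting its antigen switches on early response genes, divides, and takes up a helper or regulatory programme marked by transcription factors and cytokines. A lymphoma grows from 1 transformed cell, whose descendants carry the same rearranged T cell receptor, and it can contain macrophages, vessels and stroma.

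Expression was measured by sequencing of messenger RNA, and values below are normalised reads (reads divided by 1 scaling factor per library), in the order of the replicate numbers. The 6 libraries held 11710623 to 18488468 reads. Lymphoma 3 stood apart in several respects: genes of the mitochondrial genome took 15.9% of its reads, against 7.24% and 9.15% in lymphomas 1 and 2 and 2.80% to 3.45% in the controls. The mitochondrial share was 10.8 ± 4.53% in lymphomas and 3.12 ± 0.323% in controls (SD, n = 3 each), and that of ribosomal protein genes was 3.50 ± 0.440% and 6.12 ± 0.234%. Neither group overlapped the other, and each two-sided exact permutation p was 0.1, the smallest possible with 3 against 3 (0.133 after adjustment over 4 measures). Lymphoma 3 also had the highest sums of stromal, endothelial, epithelial and macrophage markers, given below. On the first principal component, with 62.1% of the variance, controls lay from -101 to -92.5 and lymphomas from 89.4 to 100.4. The second (15.7%) set lymphoma 1, at -94.3, against lymphomas 2 and 3, at 40.4 and 57.2, and the third (14.0%) set lymphoma 2, at 82.5, against lymphoma 3, at -74.8.

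The samples carried the T cell genes their labels imply. CD3E, a chain of the receptor complex, was at 19717, 21022 and 21357 in controls and 22222, 13794 and 17657 in lymphomas, and CD3D was at 4156, 4514 and 4360.0 and 8779, 4093 and 6238. Both ranges overlapped. CD4 and CD40LG, the markers that would set CD4+ cells apart, were not analysed here. CD8B, which encodes a chain of the receptor of CD8+ T cells, was at 66.9, 53.7 and 69.5 in controls and 90.6, 44.9 and 19.1 in lymphomas, and CD8A, the other chain, was at 30.0, 33.8 and 13.9 and 1089, 48.9 and 70.0. CD8A was thus high in lymphoma 1 alone, without CD8B at a matching level. Its difference between the groups did not pass (log2 fold change 2.64 ± 1.13, limma adjusted p = 0.12).

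Of 14631 genes tested, 2265 were higher and 2084 lower in the lymphomas at an adjusted p under 0.05 (limma), 29.7% of the genes in either direction. Lymphomas and controls did not overlap for 4346 of these 4349 genes, against 48.9% of all genes tested whose groups did not overlap. A call with 3 against 3 libraries nearly requires such separation, so it adds no support. The median log2 fold change over all genes was -0.032. Changes of at least 4 on the log2 scale numbered 350 higher and 155 lower, and those past 6 numbered 107 and 18. No read was found in any control for 47 of the higher genes and in any lymphoma for 14 of the lower ones. The values (+ 1) of the 3 lymphomas lay within 2-fold of each other for 1496 higher and 1280 lower genes, and over 8-fold apart for 111 and 129. Within groups, the median log2 SD per gene was 0.237 for controls and 0.433 for lymphomas. Without control 2 the counts were 1032 higher and 723 lower, without control 1 they were 1411 and 1022, and without control 3 they were 1236 and 907. The calls held in all 6 fits that left out 1 library for 989 higher and 688 lower genes.

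**Figure D1:**
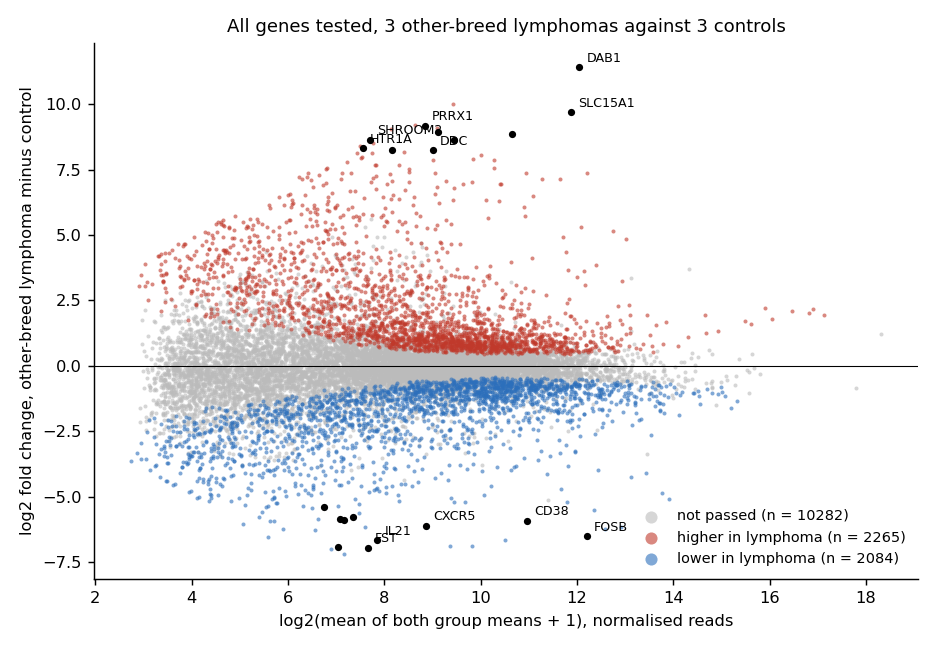
Each point is 1 of the 14631 genes tested; the horizontal axis is the log2 of the mean level (normalised reads + 1) and the vertical axis the log2 fold change of other-breed lymphoma over control. Red and blue points passed at an adjusted p under 0.05, 2265 above zero and 2084 below, grey points did not, and black points are the 10 largest changes per direction among genes with a symbol and a mean of at least 200 in the higher group. The largest increases reach further from zero than the largest decreases.

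The genes with the largest increases were nearly silent in the controls and several are best known from nerve, gut or muscle. DAB1, an adaptor of the reelin pathway that positions migrating neurons, was at 12.3, 0 and 0.926 in controls and at 6068, 11835 and 7429 in lymphomas. The lowest lymphoma was 494 times the highest control (log2 fold change and its SE 11.43 ± 0.89, limma adjusted p = 0.000699). SLC15A1, the gut transporter of small peptides, was at 15.0, 11.6 and 1.85 and 7435, 10964 and 4012 (9.70 ± 0.69, adjusted p = 0.000572). LAMA2, a laminin chain of the basement membrane of muscle and nerve, was at 16.4, 0 and 13.0 and 3470.0, 4444 and 1627 (8.87 ± 1.07, adjusted p = 0.00216). All 3 genes were abundant in every lymphoma, and lymphoma 3 was the lowest of the lymphomas in SLC15A1 and LAMA2.

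SHROOM2, an actin-binding regulator of cell shape, had no read in any control and 391, 550.4 and 297 in the lymphomas. From the pooled reads it was at least 432-fold higher, with 3 reads over the control group as the floor (limma adjusted p = 0.000403). HTR1A, a serotonin receptor, was likewise at 0 in the controls and at 368, 143 and 611 in the lymphomas, at least 352-fold higher (adjusted p = 0.000706). Each of the next 4 genes had 2 control reads in all, in control 1. PRRX1, a homeobox factor of connective tissue and limb mesenchyme, was at 773, 993 and 966 in the lymphomas, a ratio of pooled reads of 1396-fold (exact 95% interval 386 to 11535), which covers counting error only. It was the most even of the genes with the largest increases, and the part of stromal cells in its level was not tested. NCAM1, the neural cell adhesion molecule CD56, was at 1551, 1577 and 176, CNNM1, a membrane protein of the magnesium transporter family, at 1078, 274 and 359.8, and DDC, the decarboxylase that makes dopamine and serotonin, at 95.3, 2551 and 433. Their adjusted p-values were 0.00183, 0.00103 and 0.00376. NCAM1 was lowest in lymphoma 3 and DDC was lowest in lymphoma 1, with a range of 26.8-fold among the lymphomas. MEGF6, a protein of EGF-like repeats, was at 1.36, 0 and 3.70 in controls and 911, 2989 and 259 in lymphomas (8.64 ± 0.97, adjusted p = 0.00188).

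The abundant genes with the smallest p-values among the increases included several with even lymphomas. FSCN1, the actin-bundling protein fascin, lay between 9.91 and 12.3 in the 3 controls and was at 1149, 1509 and 1476 in lymphomas (6.79 ± 0.28, limma adjusted p = 0.000181). IGSF3, an immunoglobulin superfamily membrane protein, was at 213, 238 and 236 and 4746, 3953 and 3377 (4.12 ± 0.17, adjusted p = 0.000181). CIT, the citron kinase of cytokinesis, was at 285, 223 and 264 and 2179.9, 2349 and 2337 (3.15 ± 0.16, adjusted p = 0.000356). From the lowest to the highest lymphoma these 3 genes spanned 1.31-fold, 1.41-fold and 1.08-fold. B4GALT6, which makes lactosylceramide, was at 56.0, 37.2 and 59.3 and 15482, 6979 and 5640.0 (7.38 ± 0.39, adjusted p = 0.000389), and MED12L, a subunit of the Mediator kinase module, at 53.2, 27.2 and 46.3 and 10091, 5581 and 3543 (7.13 ± 0.42, adjusted p = 0.000429). Both were highest in lymphoma 1, with no overlap between the groups.

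The largest decreases included genes by which CD4+ T cells help B cells and respond to antigen. IL21, the helper cytokine that acts on B cells, was at 513, 503 and 350.1 in controls and 1.18, 2.37 and 10.6 in lymphomas (-6.68 ± 0.67, limma adjusted p = 0.00132). CXCR5, the receptor that leads helper cells to B cell follicles, was at 883, 759.5 and 1118 and 25.9, 3.94 and 15.9 (-6.12 ± 0.62, adjusted p = 0.00136). CD38, a surface enzyme that consumes NAD, was at 5469, 3155 and 3056 and 38.8, 49.7 and 116 (-5.92 ± 0.43, adjusted p = 0.000575). The lowest control was 33.0, 29.3 and 26.4 times the highest lymphoma in these 3 genes. FOSB, an early response factor, was at 10298, 15012 and 2484 and 28.2, 45.7 and 371, with wide spread in both groups (-6.51 ± 1.03, adjusted p = 0.00498). FST, the activin antagonist follistatin, was at 561, 342 and 288 and 15.3, 0.789 and 0 (-6.95 ± 1.02, adjusted p = 0.00389). SULT2B1, a sterol sulfotransferase, was at 109, 323 and 352 and had 3 reads in all 3 lymphomas together, a control to lymphoma ratio of pooled reads of 287-fold (exact 95% interval 97.9 to 1395) (adjusted p = 0.00141). The ion channel gene SCN4A was at 202, 318 and 268 and 5.89, 11.8 and 0 (-5.86 ± 0.93, adjusted p = 0.00493), and KIAA1456, a gene of uncharacterised name, at 359, 286 and 305 and 0, 12.6 and 12.7 (-5.79 ± 1.01, adjusted p = 0.00701). Both receptor V segments among the 10 largest decreases are taken up with the T cell receptor below.

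**Figure D2:**
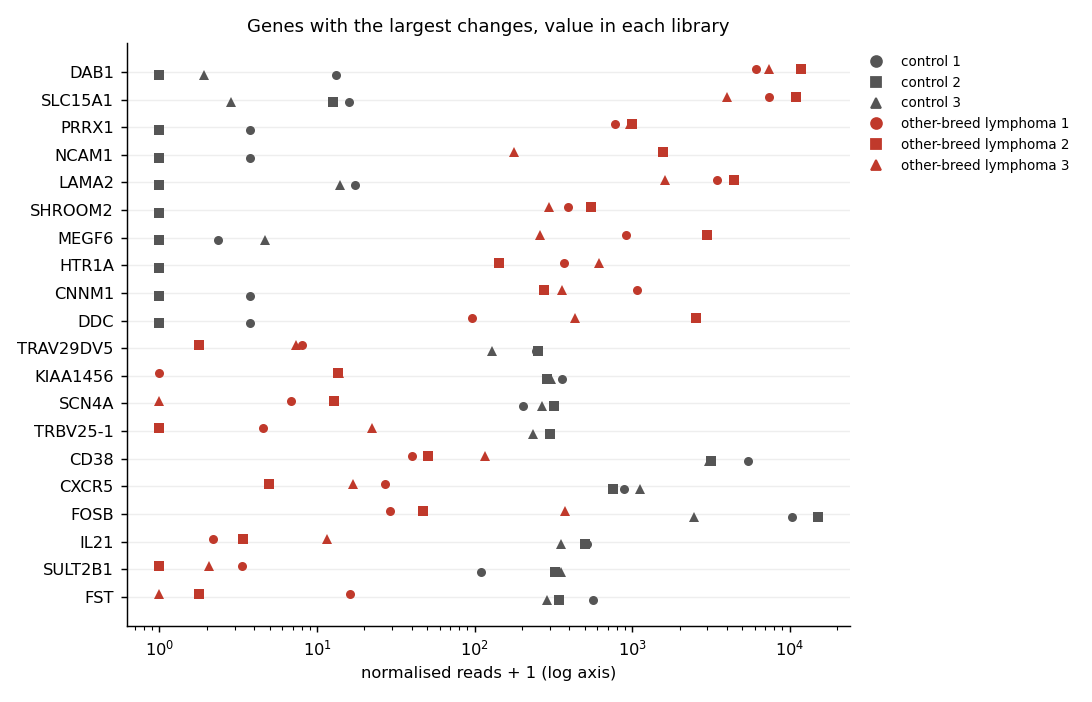
Each symbol is 1 library, controls in grey and other-breed lymphomas in red with the shape giving the replicate, on a log axis of normalised reads + 1; genes run from the largest increase (DAB1) to the largest decrease (FST). The choice of genes requires the groups to lie apart; DDC spreads widely among the lymphomas, and FOSB in both groups.

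Abundant genes with the smallest p-values among the decreases varied little in either group. TARBP1, a methyltransferase named for binding viral TAR RNA, was at 5977, 5247 and 5444 in controls and 1604, 1612 and 1513 in lymphomas (-1.82 ± 0.13, limma adjusted p = 0.000572). STK38, a kinase of the Hippo-related NDR family, was at 6869.6, 6953 and 6417 and 1873, 1609.5 and 1475 (-2.04 ± 0.15, adjusted p = 0.000572). PSEN2, a catalytic subunit of gamma-secretase, was at 3152, 2963 and 2927 and 579, 681 and 483 (-2.39 ± 0.17, adjusted p = 0.000572). The lymphomas spanned 1.07-fold, 1.27-fold and 1.41-fold in these genes. TMEM71 fell by 3.59, the POU-domain factor POU6F1 by 3.13 and CDC25B, a phosphatase that opens mitosis, by 3.76 on the log2 scale (adjusted p = 0.000532, 0.000575 and 0.000389). CDC25B was at 1563, 1776 and 1779.9 in controls and 152, 102 and 126 in lymphomas, whereas the mitotic genes of the list below rose.

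Cell division genes were higher in all 3 lymphomas. All 30 tested members of a mitosis and spindle list were called higher, where 15.5% of all genes were called higher and 14.2% lower, and the median log2 fold change of the list was 2.83. TOP2A, the topoisomerase of dividing cells, was at 684, 645 and 708 in controls and 12309, 7981 and 9780.3 in lymphomas (3.86 ± 0.18, limma adjusted p = 0.000256). KIF23, a motor of the spindle midzone, was at 88.7, 92.5 and 121 and 1339, 713 and 1277 (3.41 ± 0.30, adjusted p = 0.000876), and CENPA, the centromere histone, rose by 4.30 ± 0.58. Of the 28 DNA replication genes, 22 rose and none fell, with a median of 1.60. MCM5, of the replicative helicase, was at 354, 430.1 and 488 and 4003, 2324 and 3981 (2.98 ± 0.25, adjusted p = 0.000855), and CDC6, which loads that helicase, rose by 3.33 ± 0.31. The summed mitosis genes were at 4855, 4396 and 5079 in controls and 45619, 23350.3 and 36325 in lymphomas, lowest in lymphoma 2. The replication count was 17 without control 2, and the mitosis count stayed between 27 and 29 without any 1 library.

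Single regulators of growth and division were also examined. CCND2, the cyclin that drives early G1 in T cells, was at 2342, 2229 and 2547 in controls and 10858, 19071 and 7341 in lymphomas (2.28 ± 0.32, limma adjusted p = 0.00359). CDKN1B, the inhibitor p27 of resting cells, was at 17319, 15419.7 and 15306 and 5605, 3796 and 2598 (-2.07 ± 0.28, adjusted p = 0.00298). Neither gene's groups overlapped. TERT, the catalytic subunit of telomerase, was at 47.8, 95.8 and 139.8 and 448, 371 and 451 (2.28 ± 0.41, adjusted p = 0.00754). MYC, a driver of growth, was at 3161, 3363 and 3661 and 2723, 2334 and 1831 and thus somewhat lower in the lymphomas (-0.58 ± 0.18, adjusted p = 0.0466). The MYC call ended without any 1 library except lymphoma 1, with adjusted p-values up to 0.148, and by edgeR (0.0661).

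Several genes of biosynthesis were higher. In a sterol synthesis list 9 of 21 tested genes rose (42.9%) and 1 fell (4.76%), with a median of 1.01. The shares over all genes were 15.5% and 14.2%. DHCR7, the enzyme of a last step to cholesterol, was at 56.0, 87.5 and 68.5 in controls and 1567, 614 and 509 in lymphomas (3.48 ± 0.45, limma adjusted p = 0.00266). TM7SF2, a sterol reductase, was the member that fell. In a list of purine, pyrimidine and one-carbon synthesis 10 of 20 rose and 1 fell. PSAT1, of serine synthesis, was at 217, 191 and 263 and 942, 1038 and 854 (2.08 ± 0.20, adjusted p = 0.00107), and the mitochondrial folate enzyme MTHFD1L rose by 1.42 ± 0.16. CTPS1, the CTP synthase that lymphocytes depend on to proliferate, was the member that fell, from 17080.5, 15348 and 16005 to 5994, 1860.3 and 5611 (-2.02 ± 0.43, adjusted p = 0.0139). Its call ended without any 1 control (adjusted p up to 0.0558). Of 24 genes of the unfolded protein response 9 rose, among them the chaperones HYOU1 (1.05 ± 0.14) and CANX (1.18 ± 0.19), and PPP1R15A, which restores translation after stress, fell from 2383, 2699.7 and 1005 to 28.2, 26.0 and 274 (-4.95 ± 0.90). The sterol count was 4 without control 2, 4 without control 3. The synthesis count was 5 without control 1, 4 without control 2, 6 without control 3, and that of the stress response 4 without control 1, 3 without control 2, 4 without control 3. The single falls in the sterol and synthesis lists were not called without control 1, 2 or 3.

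**Figure D3:**
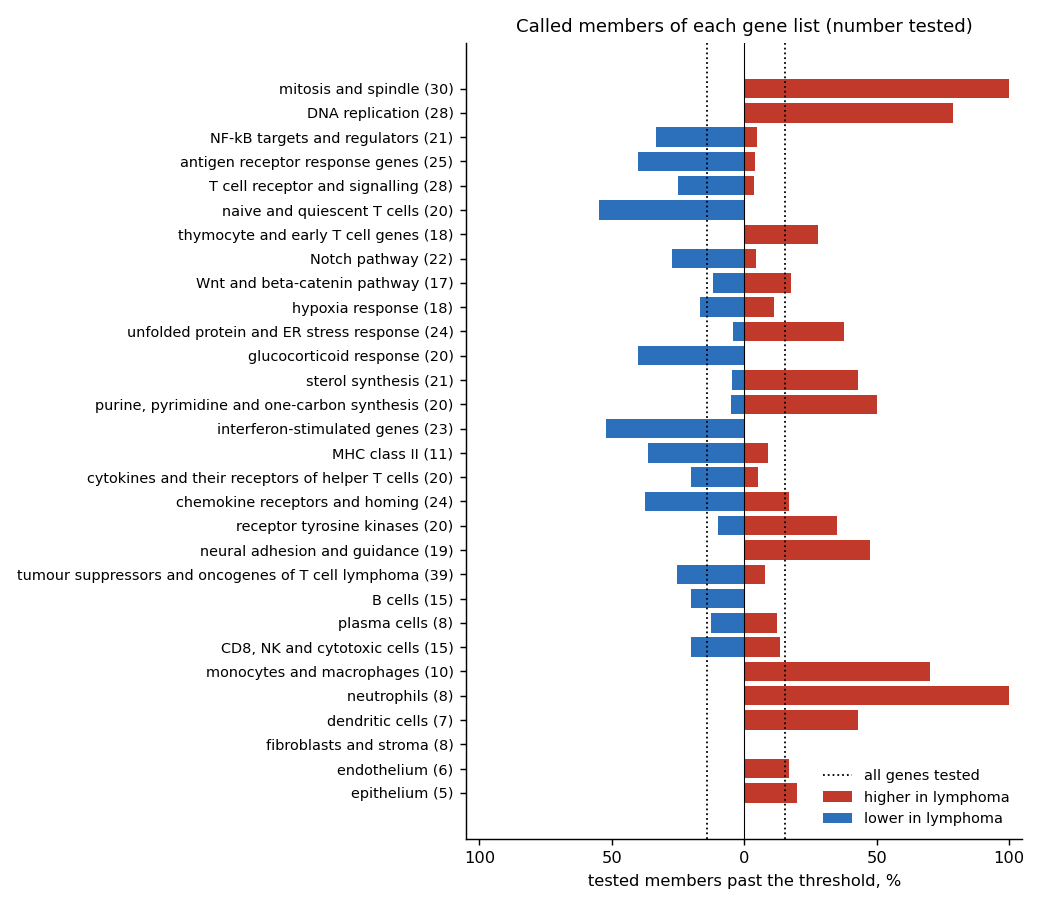
Bars give the percentage of each list's tested members (number in brackets) that passed higher (red, to the right) or lower (blue, to the left) in other-breed lymphomas, for lists with at least 5 tested members except 1 that is not reported. Dotted lines mark the same percentages over all genes tested, 15.5% higher and 14.2% lower; mitosis genes reach 100% higher, and naive T cell and interferon-stimulated genes lie furthest to the left. The neutrophil, macrophage, neural and receptor kinase bars cannot be read against the dotted lines, since many of their genes were near 0 in the controls and were tested only where the lymphomas were high. The filter also bears on the dendritic and early T cell bars, with 7 of 11 and 18 of 28 found genes tested. It bears on the stromal, endothelial and epithelial bars too, with 8 of 17, 6 of 14 and 5 of 11 tested.

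Of 20 genes of naive and resting T cells tested, 11 fell (55.0%) and none rose (median -1.41). The shares over all genes were 14.2% and 15.5%. S1PR1, the receptor by which T cells leave lymph nodes, was at 2125, 2223 and 2384 in controls and 61.2, 40.2 and 302 in lymphomas (-4.61 ± 0.67, limma adjusted p = 0.00386). GIMAP8, a GTPase of lymphocyte survival from a family whose copies may share reads, was at 2874, 2814 and 2632 and 494, 272 and 229 (-3.14 ± 0.28, adjusted p = 0.000941). FOXO1, which holds T cells at rest, was at 1538, 1614 and 1348 and 561, 681 and 664 (-1.24 ± 0.16, adjusted p = 0.00261). Of the factors that shape the naive state, LEF1 fell by 1.68 on the log2 scale (adjusted p = 0.00214), while its relative TCF7 was at 7196, 8940.4 and 9654 and 6663, 9388 and 5070.0 and SATB1 at 10211, 10281 and 9371 and 9619, 13942 and 11315, both with overlapping groups. IL7R, the receptor for the survival cytokine of resting T cells, was at 9116, 7174 and 7486 in controls and 1118, 346 and 7671 in lymphomas, so that lymphoma 3 lay within the control range. In bulk samples fewer cells of a type and less RNA per cell cannot be told apart.

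Of 24 chemokine receptor and homing genes, 4 rose and 9 fell, where 15.5% of all genes rose and 14.2% fell, so that the rises were near the share over all genes. CCR9, the receptor for the thymus and small intestine, was at 222, 375 and 331 in controls and 26420.3, 6112 and 7943 in lymphomas (5.16 ± 0.53, limma adjusted p = 0.00136). It was highest in lymphoma 1 and its lowest lymphoma value was 16.3 times the highest control. CXCR3, the receptor for interferon-induced chemokines, was at 171, 186 and 133 and 400.2, 742 and 421 (1.62 ± 0.30, adjusted p = 0.00884). CCR6, a receptor of memory and type 17 helper cells, was at 688, 480.5 and 487 and 30.6, 19.7 and 64.7 (-3.96 ± 0.46, adjusted p = 0.00196), and CCR7, for entry to lymph nodes, at 20734, 18291 and 19079 and 7394, 8109 and 6062 (-1.44 ± 0.17, adjusted p = 0.00225). CCR6 and CCR7 both lay below every control in each lymphoma. CCR4 was at 222, 102 and 223 and 2263, 241 and 1072 and did not pass (adjusted p = 0.0635), with lymphoma 2 near the controls. The count of 4 higher genes was 2 without control 1, 2 or 3.

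Among the 28 T cell receptor and signalling genes tested, 1 rose (3.57%) and 7 fell (25.0%), with a median of -0.20. Over all genes 15.5% rose and 14.2% fell. CD5, a brake on receptor signalling, was at 10272, 10649 and 10582 in controls and 3737, 3546 and 4319.7 in lymphomas (-1.45 ± 0.14, limma adjusted p = 0.00131). PLCG1, the phospholipase below the receptor, was at 11132, 11177 and 11456 and 5329.7, 5534 and 6147 (-0.99 ± 0.14, adjusted p = 0.00359). Both fell evenly, and CD2, an adhesion receptor, was the gene that rose (8046, 6913 and 7354 and 19018, 11628 and 10589, 0.84 ± 0.24, adjusted p = 0.0389). The CD2 call ended without control 1, 2 or 3 (adjusted p up to 0.141). The number that fell was 4 without control 1, 3 without control 2, 4 without control 3, and the number that rose was 5 without lymphoma 2.

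The receptor V segments that carry a symbol (6 TRBV and 5 TRAV) were spread over segments in the controls and concentrated in some lymphomas. These segments share sequence, so reads may be split between them. TRBV16 took 56.0%, 45.1% and 40.7% of the 3146, 4616 and 3887 TRBV reads of the controls. In lymphoma 1 it took 98.9% of 9617 reads (exact 95% interval 98.7 to 99.1). In lymphoma 2 another segment, TRBV3-1, took 89.5% of 693 reads (86.9 to 91.7). In lymphoma 3 no TRBV segment stood out, with TRBV16 at 45.2% of 219 reads (38.5 to 52.1), but TRAV24 took 89.7% of its 359 TRAV reads (86.1 to 92.6), where the top segment of the controls took 25.1% to 29.2%. The top share in each lymphoma thus lay above that of every control in at least 1 of the families. TRAV reads numbered 22 and 12 in lymphomas 1 and 2 and 610 to 1080 in the controls. TRBV25-1 was at 296, 301 and 233 in controls and 3.53, 0 and 21.2 in lymphomas (-5.89 ± 1.04, limma adjusted p = 0.00731), and TRAV29DV5 at 243, 250.2 and 128 and 7.06, 0.789 and 6.37 (-5.39 ± 0.70, adjusted p = 0.00281). The intervals cover counting error only, and segments without a symbol were not analysed here.

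**Figure D4:**
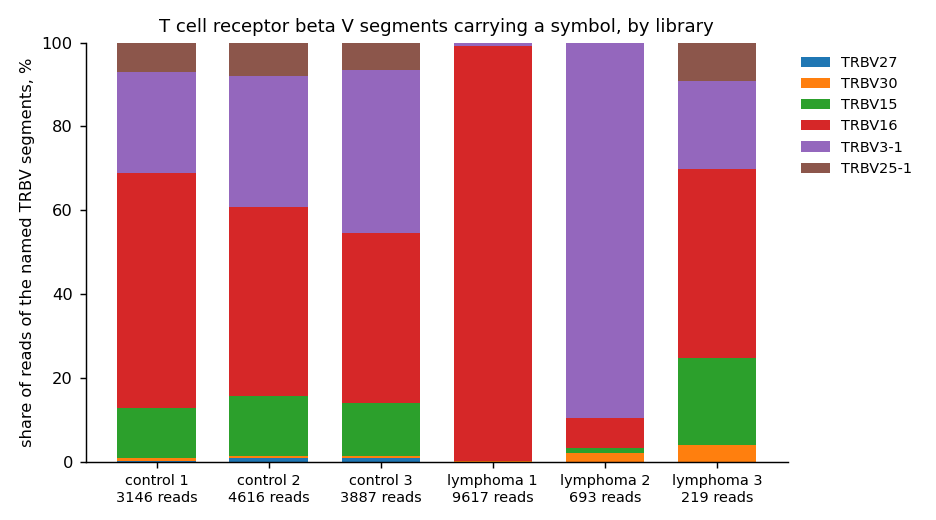
Each bar is 1 library and its colours divide the reads of the 6 TRBV segments with a symbol, in percent, with the read total under the bar. The controls are mixed, TRBV16 fills 98.9% of lymphoma 1, TRBV3-1 fills 89.5% of lymphoma 2, and lymphoma 3 is mixed on only 219 reads.

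The factors and cytokines of helper cell types did not move together. GATA3, the type 2 helper factor, was at 1939.5, 2315 and 2146 in controls and 8092, 5011 and 8270.0 in lymphomas (1.71 ± 0.22, limma adjusted p = 0.00269), above every control in each lymphoma. IL4, the type 2 cytokine, was at 10.9, 13.2 and 10.2 and had no read in any lymphoma, at least 11.8-fold lower with 3 reads over the group as the floor (adjusted p = 0.00701). TBX21, the type 1 factor, was at 138, 111 and 63.9 and 21.2, 110.4 and 19.1 (adjusted p = 0.171), and IFNG at 69.6, 53.7 and 14.8 and 0, 2.37 and 17.0 (adjusted p = 0.0646). Neither type 1 gene passed. Genes of regulatory T cells separated the lymphomas from each other: FOXP3, their defining factor, was at 730.2, 629 and 629.7 in controls and 142, 56.0 and 502 in lymphomas. IL2RA, the high-affinity interleukin 2 receptor chain CD25, was at 1829, 1130.2 and 1147 and 128, 73.3 and 1199. CCR8, a receptor of tissue regulatory cells, was at 49.1, 31.4 and 42.6 and 4.71, 7.10 and 222. In lymphoma 3 IL2RA was within the control range, CCR8 above it and FOXP3 a little below it, and in lymphomas 1 and 2 all 3 genes were well below it. None of the 3 passed (adjusted p = 0.0643, 0.0776 and 0.622). Over the whole list of 20 helper cytokines and receptors 1 rose and 4 fell. Without lymphoma 3 the number that fell was 9. Without lymphoma 2 the number that rose was 3, and without control 2 it was 0.

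Of 25 genes that T cells switch on within hours of antigen, 10 fell (40.0%) and 1 rose (4.0%), with a median of -1.54. The shares over all genes were 14.2% and 15.5%. FOS, an early response factor, was at 38620.1, 42460.5 and 7754 in controls and 222, 446 and 3181 in lymphomas (-5.10 ± 1.04, limma adjusted p = 0.0123). ZFP36, which destabilises cytokine messages, was at 2023, 3008 and 2256 and 423, 482 and 896 (-2.08 ± 0.31, adjusted p = 0.00401), and the phosphatase gene DUSP2 at 6056, 5341 and 5991 and 932, 1020.4 and 2798 (-2.06 ± 0.40, adjusted p = 0.01). Lymphoma 3 had the highest value of the lymphomas in all 3 genes. FOS varied widely in both groups, and its call ended without control 1 or 2 (adjusted p up to 0.0553). PTGER4, a prostaglandin E2 receptor, was the gene that rose, from 1267, 1148 and 934 to 6321, 6777 and 4712 (2.40 ± 0.20, adjusted p = 0.000837). The number that fell was 4 without control 1, 4 without control 2. The number that rose was 2 without lymphoma 1 or 2. The controls had been sorted before extraction, and the part of handling in these differences was not tested.

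Of 20 glucocorticoid response genes, 8 fell (40.0%) and none rose, where 14.2% of all genes fell and 15.5% rose. TSC22D3, the glucocorticoid-induced leucine zipper, was at 10507, 10278 and 8484 in controls and 1088, 2393 and 2642 in lymphomas (-2.35 ± 0.33, limma adjusted p = 0.00353). KLF9, a further hormone-induced factor, was at 189.7, 95.8 and 83.3 and 9.42, 15.8 and 21.2 (-2.88 ± 0.52, adjusted p = 0.00792). Both fell in every lymphoma below every control. Of 21 genes of the NF-kB pathway 7 fell (33.3%) and 1 rose (4.76%). MAP3K14, the kinase of the non-canonical branch, was at 744, 835 and 1019.6 and 225, 250.0 and 366 (-1.64 ± 0.24, adjusted p = 0.00404), and CD83, an activation marker, rose from 84.6, 93.3 and 126 to 419, 268 and 595 (2.01 ± 0.35, adjusted p = 0.00708). The glucocorticoid count of falls was 4 without control 1, 3 without control 2, and its count of rises was 1 without lymphoma 2 or 3. The NF-kB count of falls was 1 without control 1, 1 without control 2, 2 without control 3, 3 without lymphoma 1, 11 without lymphoma 3.

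Of 23 interferon-stimulated genes tested, 12 fell (52.2%) and none rose (median -1.44), where 14.2% of all genes fell and 15.5% rose. TRIM22, an antiviral ubiquitin ligase, was at 25198, 20733 and 33369 in controls and 1641, 219 and 2010.2 in lymphomas (-4.85 ± 0.78, limma adjusted p = 0.00529). ISG15, a ubiquitin-like modifier, was at 243, 119.7 and 97.2 and 1.18, 20.5 and 2.12 (-4.76 ± 0.92, adjusted p = 0.01). IRF9, the factor through which type I interferon acts, was at 2233, 1583 and 1808 and 627, 689 and 665 (-1.49 ± 0.17, adjusted p = 0.00193). Among the lymphomas TRIM22 varied by 9.17-fold and ISG15 by 17.4-fold, and IRF9 by 1.10-fold. Leaving out any 1 library left between 8 and 14 of these genes called lower. Of 11 MHC class II genes 4 fell (36.4%) and 1 rose (9.09%). RFX5, a regulator of the class II genes, was at 1387, 1262 and 1360.4 and 823, 573 and 584 (-1.04 ± 0.19, adjusted p = 0.00768), and DLA-DOA, a modulator of peptide loading, at 551, 407 and 431 and 2118, 1045 and 1283 (1.62 ± 0.28, adjusted p = 0.00684). DLA genes have near-identical copies, so their reads are uncertain. The class II count of falls was 2 without control 1, 1 without control 2, 1 without control 3, 8 without lymphoma 3.

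Genes of immature T cells rose in part, without the genes that rearrange the receptor. Of 28 found, 18 had enough reads to be tested. A gene silent in the controls could enter only by being high in the lymphomas. Of the 18, 5 rose (27.8%) and none fell (median 0.75), where 15.5% of all genes rose and 14.2% fell. SOX4, a factor of progenitor cells, was at 49.1, 83.4 and 114 in controls and 1317, 569 and 755 in lymphomas (3.40 ± 0.42, limma adjusted p = 0.00236). MYB, needed by thymocytes, was at 651, 303 and 305 and 2435, 1281 and 1875 (2.20 ± 0.36, adjusted p = 0.00575). CCR9, given above, belongs to this list as well. RAG1 had no read in any of the 6 libraries, RAG2 was at 1.36, 0 and 0 in controls and 0, 0 and 0 in lymphomas, and DNTT, the template-free polymerase of receptor junctions, was at 64.2, 58.6 and 42.6 and 35.3, 59.9 and 70.0. FLT3 and ETV5 made up the 5, and their calls ended without several single libraries (adjusted p up to 0.123 and 0.131). The count that rose was 3 without control 2, 3 without control 3, 3 without lymphoma 3, and 1 gene was called lower without lymphoma 1, 2 or 3.

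In the Notch pathway, which guides T cell fate, 1 of 22 genes rose (4.55%) and 6 fell (27.3%). The shares over all genes were 15.5% and 14.2%. HES4, a target gene, was at 232, 297 and 432 in controls and 4.71, 3.15 and 31.8 in lymphomas (-5.08 ± 0.80, limma adjusted p = 0.00486). MAML1, a co-activator of the receptor, was at 1893, 2034 and 1948 and 1041, 999 and 940.4 (-0.98 ± 0.13, adjusted p = 0.003), while its relative MAML3 rose from 150.1, 272 and 341 to 742, 2587 and 900.0 (2.31 ± 0.51, adjusted p = 0.0162). The receptor NOTCH1 itself was at 1559, 1879.9 and 1961 and 3099, 1743 and 2582, overlapping and not called. The MAML3 call ended without control 1 or 2 (adjusted p up to 0.0613). The number that rose was 0 without control 1, 0 without control 2, 2 without lymphoma 1, 3 without lymphoma 2, 2 without lymphoma 3.

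Genes of neural adhesion and guidance that could be tested were higher or not called. Of 41 listed, 37 were found and 19 had enough reads to be tested, and a gene silent in the controls could enter only by being high in the lymphomas. Of the 19, 9 were called higher and none lower. Besides DAB1 and NCAM1, PTPRD, a receptor phosphatase of synapses, was at 27.3, 0 and 2.78 in controls and 1254, 4504 and 373 in lymphomas (8.08 ± 1.33, limma adjusted p = 0.00574). NEO1, a receptor of netrin and related ligands, was at 17.7, 0 and 4.63 and 75.3, 356 and 517 (5.68 ± 1.18, adjusted p = 0.0128), and the semaphorin receptor PLXND1 at 1.36, 4.95 and 5.56 and 35.3, 262 and 706 (5.39 ± 1.08, adjusted p = 0.0115). PTPRD was highest in lymphoma 2, NEO1 and PLXND1 in lymphoma 3, where vessel and stroma markers were also highest; their part in these differences was not tested. The count was 5 without control 1, and 1 gene was called lower without lymphoma 2 or 3.

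Of 41 receptor tyrosine kinases 20 had enough reads to be tested, and 7 rose and 2 fell. Kinases silent in the controls could be tested only if high in the lymphomas. ALK, a kinase of the nervous system and a known oncogene of T cell lymphoma, had 1 read over the 3 controls and was at 73.0, 26.8 and 57.3 in the lymphomas, a ratio of pooled reads of 148-fold (exact 95% interval 26.2 to 5893) (limma adjusted p = 0.0026). EPHB2, an ephrin receptor, had no control read and was at 187, 38.6 and 14.9, at least 73.1-fold higher with 3 reads over the group as the floor (adjusted p = 0.00638). Both were low next to most genes named here. PTK7, a Wnt co-receptor, was at 354, 496 and 517 and 1001, 1457 and 2573 (1.79 ± 0.35, adjusted p = 0.0103). DDR1, a collagen receptor, was at 3287, 3287 and 4167 and 1517, 853 and 1414 (-1.54 ± 0.24, adjusted p = 0.00498), the firmer of the decreases. CSF1R, among the 7, is a defining gene of macrophages. The count that rose was 3, and the count that fell 1, without control 1, 2 or 3.

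Of 39 tested tumour suppressors and oncogenes of T cell lymphoma, 3 rose (7.69%) and 10 fell (25.6%). Over all genes 15.5% rose and 14.2% fell, 29.7% in either direction. EZH2, the writer of the repressive histone mark on H3K27, was at 334, 349 and 321 in controls and 2312, 873 and 1412 in lymphomas (2.08 ± 0.33, limma adjusted p = 0.00523). KDM6A, an eraser of the same mark, was at 3732, 3061 and 2644 and 918, 883 and 866 (-1.81 ± 0.16, adjusted p = 0.000952). The writer was thus higher and the eraser lower in all 3 lymphomas. STAT5B, a signal carrier of cytokine receptors, was at 4969.6, 4580.4 and 4439.7 and 1503, 1943 and 959 (-1.72 ± 0.25, adjusted p = 0.00401). It lay below every control in each lymphoma. BCL2, the survival gene, was at 4162, 2228 and 2228 and 997, 8699.8 and 2972: lymphoma 2 was the highest and lymphoma 1 the lowest of the 6 libraries. The count of falls was 6 without control 1, 5 without control 2, 6 without control 3, and the count of rises 8 without lymphoma 2. CDKN2A was not analysed here.

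Markers of other cell types were found at differing levels. Most neutrophil and macrophage genes were near 0 in the controls and could enter the test only by being high in the lymphomas, so their counts of calls describe the filter as much as the groups. The neutrophil list (12 listed, 9 found) had 8 tested genes, each called higher, and summed values of 30.0, 23.9 and 38.0 in controls and 452, 485 and 744 in lymphomas. S100A12, a neutrophil calcium-binding protein, had 3 control reads in all and was at 69.4, 82.8 and 55.2 in the lymphomas, a ratio of pooled reads of 71.1-fold (exact 95% interval 24.0 to 348) (limma adjusted p = 0.00194). Of 10 macrophage genes tested (17 listed, 16 found), 7 rose, with sums of 147, 209 and 149 and 960.5, 3532 and 21436. Lymphoma 3 had the most, and LYZ (lysozyme) made up most of that sum at 616, 2258 and 16931. APOE, a lipid carrier of macrophages, was at 16.4, 7.43 and 16.7 and 122, 801 and 2763 (5.56 ± 1.04, adjusted p = 0.00902). None of the 8 fibroblast genes tested (18 listed, 17 found) passed, and their median log2 fold change was 3.21. Some genes high in lymphoma 3 alone, among them COL1A1 and POSTN, had too few reads elsewhere to be tested. The sum of the 17 genes found was 7173, 7748 and 6704 in controls and 14689.7, 4243 and 43538 in lymphomas. In the lymphomas most of it was VIM, which T cells also express. COL3A1, a collagen of stroma, was at 28.2, 3.94 and 1749 in the lymphomas. Endothelial sums were 1037, 746 and 672 and 1294, 1126 and 10089, and epithelial sums 465, 553 and 635 and 412, 1724 and 4613. Of 14 endothelial genes found 6 were tested, and of 11 epithelial genes 5, with 1 gene called in each list. No endothelial gene was called higher without control 1, 2 or 3 or lymphoma 3, and 1 was called lower without lymphoma 3. Without lymphoma 1, 3 epithelial genes were called higher. The stromal, endothelial and epithelial sums were highest in lymphoma 3. Without lymphoma 2, 3 fibroblast and 3 endothelial genes were called higher, and without lymphoma 1, 1 fibroblast gene. The neutrophil count was 4 without control 2, 5 without control 3, and the macrophage count 2 without control 1, 3 without control 2, 2 without control 3. The part of such cells in the other gene groups was not tested.

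**Figure D5:**
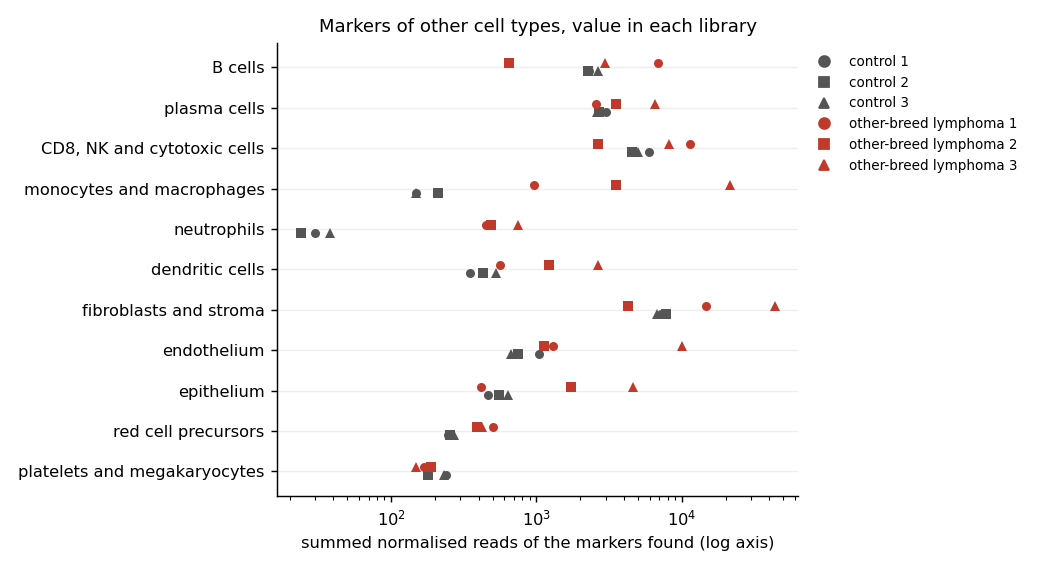
Each symbol is the summed normalised reads of 1 list of cell type markers in 1 library, on a log axis, controls in grey and other-breed lymphomas in red with the shape giving the replicate. Macrophage and neutrophil sums of all 3 lymphomas lie above the controls, lymphoma 3 (triangle) lies furthest right for macrophages, dendritic cells, stroma, endothelium and epithelium, and lymphoma 1 (circle) for B cell and cytotoxic markers. The B cell sum of lymphoma 1 is mostly MS4A1.

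B cell markers did not move together. Of 15 tested none rose and 3 fell, where 15.5% of all genes rose and 14.2% fell, so that the falls were near the share over all genes. CD79B, the signalling chain of the B cell receptor, was among them and fell from 172, 176 and 173 to 56.5, 15.8 and 31.8 (-2.46 ± 0.50, limma adjusted p = 0.0116). MS4A1, which encodes the B cell surface protein CD20, was at 209, 212 and 366 in controls and 5123, 127 and 1535 in lymphomas. CD79A, the other signalling chain, was at 969, 759 and 652 and 895, 246 and 602. MS4A1 was therefore high in lymphoma 1 and, less so, in lymphoma 3, where PAX5, a B cell factor (27.1, 1.58 and 13.8 in the lymphomas), did not exceed the range of the controls. The group difference of MS4A1 did not pass (adjusted p = 0.245). MS4A1 made up most of the summed B cell markers of lymphoma 1 (6836, against 2299, 2279 and 2632 in controls). The mean log2 level of the tested B cell markers was 6.35, 6.41 and 6.84 in controls and 6.11, 4.28 and 5.98 in lymphomas. The count of B cell genes that fell was 1 without control 1, 0 without control 2, 0 without control 3, 5 without lymphoma 1, 5 without lymphoma 3, and 1 rose without lymphoma 2. Of 15 cytotoxic markers tested 2 rose and 3 fell, also near the shares over all genes. PRF1, the perforin of cytotoxic cells, rose from 21.8, 9.91 and 9.26 to 96.5, 109.6 and 69.0 (2.74 ± 0.50, adjusted p = 0.00846), while GZMB, a granzyme, overlapped at 62.8, 14.9 and 9.26 and 9.42, 30.8 and 48.8.

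Each lymphoma also had genes high in it alone among the 6 libraries. A value of at least 500 in 1 library and at least 20 times that of each of the other 5 was found for 7 genes in lymphoma 1, 18 in lymphoma 2 and 54 in lymphoma 3, and for none in any control. In lymphoma 1 these included BCO1, an enzyme that cleaves carotene, at 826, 22.9 and 19.1 in the lymphomas, and the cadherin CDH4 at 529.7, 0 and 12.7. In lymphoma 2 they included IGF2BP2, an RNA-binding protein of embryonic tissue, at 1.18, 3609 and 43.5, ASIP, the agouti coat colour signal, at 1.18, 1024 and 0, and ELAVL4, a neuronal RNA-binding protein, at 1.18, 770.5 and 15.9. In lymphoma 3 they included the laminin chain LAMA3 at 175, 26.0 and 6613, the vessel genes VWF at 4.71, 14.2 and 2927 and IGFBP7 at 47.1, 7.89 and 5467, and the collagen COL4A1 at 2.35, 3.15 and 4304. IGF2BP2 was below the controls (112, 135 and 143) in lymphomas 1 and 3. In Boxer lymphomas 1, 2 and 3, VWF was at 673, 1244 and 1136, IGFBP7 at 524, 1209 and 2234, and COL4A1 at 626, 527 and 1956. LAMA3 was there at 76.5, 944 and 370, ELAVL4 at 170, 232 and 299, and IGF2BP2 at 69.7, 7784 and 3.12. ASIP was at 0.850, 0.948 and 315, CDH4 at 1.70, 156 and 288, and BCO1 at 37.4, 39.8 and 35.4. Of the 54 genes of lymphoma 3, 31 reached 500 in at least 1 Boxer lymphoma, against 2 of 7 and 4 of 18 for lymphomas 1 and 2.

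Set beside the Boxer lymphomas, the other-breed lymphomas differed in no gene past the threshold. Of 15112 genes tested 0 were called by limma (0.0%, smallest adjusted p = 0.182), and 753 (4.98%) had an unadjusted p under 0.05. The edgeR test also called 0. A count of 0 does not show that the groups are alike: the median SE of the difference was 0.37 on the log2 scale over 4078 genes called against controls. A call against controls favours genes that are even among these lymphomas, so the SE of other genes may be larger. The closest genes with a symbol were ROS1, ESYT1 and NFIL3. ROS1, a receptor tyrosine kinase, was at 0, 3.94 and 0 in other-breed and 89.2, 189 and 158 in Boxer lymphomas (log2 difference -6.36 ± 0.87, limma adjusted p = 0.409). ESYT1, a tether of the endoplasmic reticulum to the cell membrane, was at 863, 926 and 1057 and 2368, 3412 and 2169 (-1.46 ± 0.23, adjusted p = 0.472), and NFIL3, a circadian and immune factor, at 231, 429.8 and 516 and 54.4, 41.7 and 19.8 (3.35 ± 0.54, adjusted p = 0.496). In each of the 3 the groups did not overlap, which the choice by smallest p favours, so it adds no support. The share of all genes without overlap between the 2 kinds of lymphoma was not counted. Against the controls they share, the 2 kinds of lymphoma gave these values side by side: DAB1 was at 6068, 11835 and 7429 in other-breed and 233, 4515 and 1855 in Boxer lymphomas. SHROOM2 was at 391, 550.4 and 297 and 976, 871 and 334, and FSCN1 at 1149, 1509 and 1476 and 2042, 3026 and 2562. HTR1A was at 368, 143 and 611 and 53.5, 23.7 and 0 (4.85 ± 1.47, adjusted p = 0.881), and LEF1 at 6846, 5072 and 7558 and 24997, 37870.1 and 10364 (-1.74 ± 0.47, adjusted p = 0.881). HTR1A did not overlap between the 2 kinds of lymphoma and was at 0 in Boxer lymphoma 3. LEF1 was lower in every other-breed than in any Boxer lymphoma, and the difference did not pass.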

How the data were processed

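RNA of 9 canine samples was sequenced, and 6 libraries were used for the main comparison. The build CanFam3.1 and the tools TopHat2, HTSeq and DESeq2 are named, per the submitters' processing notes, and their versions are not given in the sources used here. Libraries were made from oligo(dT)-selected RNA, per the labels' protocols. Whether strand was kept is not given, so overlapping antisense genes cannot be separated. The authors deposited 1 signal per gene (28008 features), which from the values is reads divided by 1 factor per library. All values (100%) were whole multiples of 1 read within 0.01, so whole reads could be recovered. The edgeR quasi-likelihood test (edgeR 4.0.16) on them called 2317 genes higher and 1713 lower.

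The main test was limma 3.58.1 (R 4.3.3) on log2(value + 1), with moderated variances that follow a trend with the mean, on genes that reached 10 in 3 or more libraries, adjusted by Benjamini-Hochberg over all genes tested, with 0.05 as the threshold. Fold changes are on that log2(value + 1) scale, which understates low genes. The test was tried on simulated counts with the same spread in both groups. That trial does not cover the wider spread of the lymphomas. DESeq2 1.42.0, limma-voom, other scalings, pseudocounts and filters, a fit of all 9 libraries, a replicate block and fits without each library were the alternatives.

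The genes, the 33 gene lists and the members were chosen with earlier results of these data known. Named were, among genes with a symbol: the 10 largest non-overlapping changes per direction with a mean of at least 200 in the higher group; the 6 per direction with the smallest p and a mean of at least 1000; up to 4 called members per list and direction with the smallest p; a set of key genes; up to 5 genes per lymphoma high in 1 library alone; and the 3 genes closest to a difference from Boxer lymphomas. MS4A1, CD79A, CD8A, CD8B, CCR8, COL3A1, PAX5, GZMB, RAG2 and other members given without a call were chosen after their values were seen where they are not key genes. BCL6, CD14, NKG7 and DLA-DRA were not analysed here. Some genes are not reported here. Gene coordinates and sequences of the build were not used here.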

Additional observations from a re-analysis of the deposited data

How the results depend on the processing

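Among the 182 named genes that were tested, none that passed the threshold in either the main or the alternative analysis changed sign between them. The counts of higher and lower genes stayed within 1.5 times their main values of 2265 and 2084 under other scalings, pseudocounts, filters, edgeR, DESeq2, voom and the fit of all 9 libraries. Leaving out 1 library in turn moved them most: 1032 to 2458 genes were higher and 723 to 2468 lower, lowest without control 2. The main test and the fits without 1 library took 1 spread per gene for both groups. Lymphomas varied more than controls (median log2 SD 0.433 against 0.237). With 2 libraries in a group, the shared spread rests more on the fuller group. In the same fits 0 to 2 genes differed between other-breed and Boxer lymphomas. Replicate numbers did not pair the samples: correlations of same-numbered deviations ran from -0.125 to -0.019, and 0 of 6 samples correlated best with their own number. With the replicate number as a block, 1682 genes were higher, 1430 lower and 0 different from Boxer lymphomas. Of the named genes, 36, 43 and 35 fell short of the threshold without control 1, 2 and 3, and 9, 10 and 10 without lymphoma 1, 2 and 3. Under the block 12 did, under the fit of 9 libraries 11, under edgeR 5, and under the pseudocounts of 0.5 and 5 none. Without lymphoma 3 both remaining lymphomas were from females, like the controls. Depth limits genes near 10 reads, where 1 read moves the fold.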

Other observations

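SESN1, a stress sensor that restrains growth signalling, was at 4289, 2472 and 2462 in controls and 412, 696 and 367 in lymphomas (log2 fold change -2.65 ± 0.32, limma adjusted p = 0.00212). Of 17 Wnt pathway genes 3 rose (17.6%) and 2 fell (11.8%), near the 15.5% and 14.2% over all genes. The number that rose was 5 without lymphoma 1, and the number that fell was 1 without control 2, control 3 or lymphoma 3. SFRP1, a secreted inhibitor of Wnt proteins, had no control read and was at 620.3, 285 and 121 in the lymphomas, at least 330.4-fold higher with 3 reads over the control group as the floor (adjusted p = 0.000855). The co-receptor LRP5 was at 49.1, 67.7 and 58.3 and 647, 608 and 553 (3.35 ± 0.25, adjusted p = 0.000601), and RNF43, which removes Wnt receptors from the membrane, rose by 2.01 ± 0.33. The 3 lymphomas were even for LRP5 and uneven for SFRP1. Of 18 hypoxia response genes 2 rose (11.1%) and 3 fell (16.7%), also near the shares over all genes. GAPDH was at 4190.3, 3139.7 and 3231 and 12247, 9622 and 20564 (1.94 ± 0.29), and the glucose transporter SLC2A3 at 2002, 2098 and 1763 and 869, 718 and 478 (-1.54 ± 0.23). GAPDH is often used as a reference gene and was higher in all 3 lymphomas here. The hypoxia count of rises was 1 without control 1, 2 or 3 and 4 without lymphoma 1, and that of falls was 1 without control 1 or 2.

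Of 8 plasma cell markers tested 1 rose and 1 fell (12.5% each), near the 15.5% and 14.2% over all genes. Of 7 dendritic cell markers tested (13 listed, 11 found) 3 rose, of 3 red cell markers 1 rose and of 2 platelet markers 1 fell. Each of these counts changed when some single libraries were left out. Markers near 0 in the controls could enter the test only by being high in the lymphomas. Such were XCR1 of the dendritic list (5.46, 0 and 0 in controls) and SDC1 of the plasma list (2.73, 0 and 3.70). Among 15 cytotoxic markers 2 rose (1 without control 2, 4 without lymphoma 1) and 3 fell, near the 15.5% and 14.2% over all genes. NCR3 was among those that fell, at 437, 499 and 717 and 112, 55.2 and 107 (-2.61 ± 0.36, limma adjusted p = 0.00318).

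Gene models without an Ensembl ID made up 2068 of the genes tested, and 206 of them were higher and 400 lower. Leaving out lymphoma 3 gave 2 genes that differed between other-breed and Boxer lymphomas, CTNNA1, which encodes the adhesion protein alpha-catenin (log2 difference -4.51, limma adjusted p = 0.0333), and the unnamed ENSCAFG00000015116 (6.94). Leaving out lymphoma 2 gave 1, ENSCAFG00000016065 (6.82, adjusted p = 0.0111). These 3 were chosen after their values were seen, and none passed with all libraries. In each, the library left out went against the call. CTNNA1 was at 71.8, 94.6 and 2677 in other-breed and 1649.8, 2073 and 2017 in Boxer lymphomas. ENSCAFG00000015116 was at 21.2 in lymphoma 3, within the Boxer range of 16.1 to 36.4. ENSCAFG00000016065 was at 60.7 in lymphoma 2, below every Boxer lymphoma, and at 218, 9189.7 and 12668 in the controls.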
